A study of Mus musculus with 3 samples.

Results

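The Hox genes are the 39 protein-coding mouse genes of the HoxA, HoxB, HoxC and HoxD clusters, out of 22367 protein-coding genes in the annotation. They were chosen by symbol, and each cluster was followed from its first to its last gene with 10 kb on both sides. HoxA, with 11 genes, lies on chr6:52095366-52220874, HoxB, with 10 genes, on chr11:96045630-96239570, HoxC, with 9 genes, on chr15:102741534-102877274, and HoxD, with 9 genes, on chr2:74496367-74613200, all in the NCBI37/mm9 build. The 4 windows together cover 572 kb.

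Hox genes encode homeodomain transcription factors that give cells their position along the head to tail axis of the embryo. Genes at the 3′ end of a cluster, which have the lowest paralogue numbers, are switched on first and furthest to the front, and genes at the 5′ end follow later and further back. Retinoic acid, the ligand of the RARs, activates the 3′ genes in the embryo, and the response elements known for this are mostly direct repeats of the nuclear receptor half-site with 5 bases between them (DR5), bound by a heterodimer of RXR and RAR. Adult hepatocytes are an endodermal cell type in which most Hox genes are known to be little used, and Polycomb proteins hold unused Hox clusters silent in many tissues.

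The libraries came from the whole liver of male wild type C57BL/6 mice at 3 months of age, with no treatment named in the labels, and how many mice a library came from is not given in the sources used here. There was 1 library each for chromatin bound by the anti-RXRα antibody, for chromatin bound by the anti-RARα antibody and for input chromatin, which was not precipitated. With 1 library per antibody no difference has a replicate check, and no test between conditions was possible. Counts of RARα peaks per length carry exact Poisson intervals, RXRα to input ratios exact Clopper-Pearson or Poisson intervals, and shares of genes Wilson intervals, all at 95% and all for counting error only. The deposited signal held 9.99994 M reads for RXRα and 9.99929 M reads for input, while the RARα list, with 143280 peaks, does not give its depth. The deposited RXRα track is labelled as normalised and held fewer reads than the study gives as mapped for this library. The RXRα and input totals are also nearly equal, so they should not be read as the sequencing depth. Every RXRα value and counting interval here rests on the deposited reads. Each RARα peak has a score from the peak caller, from 5 to 382, and the list does not say on which scale. Whole liver holds several cell types, so strong binding in few cells and weak binding in many cells cannot be told apart. The files hold no expression, so the tissue was checked only by binding: Alb, which encodes albumin, had a RARα peak of score 221 within 1 kb of its start, and 6 of 7 hepatocyte genes had such a peak, compared to 52.2% of all protein-coding genes. All 7 hepatocyte genes reached 2 times input in RXRα around the start, compared to 39.5% of all genes.

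The DNA of the clusters is described first, because it is where RXRα and RARα could be looked for. Direct repeats with 1, 2 or 5 bases between the half-sites were searched on both strands. The 8 half-sites allowed were the common form AGGTCA with its variants AGTTCA for the third base, GGGTCA for the first base and GGTTCA for both of these, and the forms of these with G in place of the last C, which read AGGTGA in the common case, AGTTGA with the third base changed, GGGTGA with the first base changed and GGTTGA with both changed. The windows held 16 DR5 repeats, or 28.0 per Mb (16 to 45.4), compared to 9.77 per Mb in the whole genome. Of the 55 tiles of 10 kb in the windows 14 held a DR5 (25.5%), compared to 9.41% of all 10 kb tiles. The other spacings did not show this, with 8.74 DR1 repeats per Mb (2.84 to 20.4) against 14.5 in the genome and 10.5 DR2 repeats per Mb (3.85 to 22.8) against 17.1. Of the 16 DR5 repeats 13 lay in the 3′ sections of the clusters, 1 in the middle sections and 2 in the 5′ sections, where 3′ stands for paralogue groups 1 to 4, middle for groups 5 to 8 and 5′ for groups 9 to 13.

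Some of the DR5 repeats had near copies in another cluster, and these are shown because they let the same sequence be compared at several places. The first 4 begin with GGTTCA and end with AGTTCA. The capitals mark the half-sites, and each sequence is given 5′ to 3′ on the strand of the Hox genes with 6 bases on both sides.
Hoxa3 intron: aatctcGGTTCAagaagAGTTCAcaagcc
Hoxb3 intron: aatctcGGTTCAagaagAGTTCAcaagct
Hoxd3 intron: tttttaGGTTCAagcagAGTTCAcaagga
3′ of Hoxb1: cttcctGGTTCAtagagAGTTCAgctctg
The repeat 3′ of Hoxb1 lies at chr11:96234090-96234106 on the plus strand, 7032 bp downstream of the TSS. It is known from embryos as a retinoic acid response element. The repeats in the introns of the paralogue group 3 genes lie at chr6:52125532-52125548 (minus), chr11:96202550-96202566 (plus) and chr2:74579597-74579613 (plus). The Hoxa3 and Hoxb3 copies were identical in 17 of 17 bases of the repeat and in 28 of 29 bases with the flanks, and this repeat occurred 2 times in the whole genome, namely at these positions. The Hoxd3 copy was identical to them in 16 of 17 bases.

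The second set lies around the paralogue group 4 genes, in which the second half-site is AGGTCA. Hoxb4 and Hoxd4 are classical retinoic acid targets in the hindbrain.
Upstream of Hoxa4: aggccgAGGTGAacttcAGGTCAgcgcgt
Upstream of Hoxb4: ggagagGGGTGAaccgcAGGTCAcggcgt
Hoxc4 intron: cacccgAGGTGAaatgcAGGTCActctgt
Hoxd4 intron: gcaataAGGTGAaatgcAGGTCAcaatgt
They lie at chr6:52144877-52144893 (minus), chr11:96175913-96175929 (plus), chr15:102859791-102859807 (plus) and chr2:74562812-74562828 (plus). The Hoxc4 and Hoxd4 repeats were identical in 17 of 17 bases, the Hoxa4 and Hoxc4 repeats in 15 of 17 and the Hoxa4 and Hoxb4 repeats in 14 of 17.

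RXRα signal over the repeats was counted in reads within 201 bp around the repeat, in which a read can count in part. The Hoxb3 intron repeat had 13 RXRα reads (6.92 to 22.2, exact Poisson interval) against 0.4 input reads. Its copy in the Hoxa3 intron, with the same 17 bases, had 5.2 RXRα reads (1.62 to 11.7) against 1.4 input reads, so these copies cannot be told apart at this depth. The Hoxd3 copy had 2.0 RXRα reads against 1.2 input reads. The repeat 3′ of Hoxb1 had 0.0 against 0.8. In the group 4 set the values were 5.2 RXRα reads against 0.0 for Hoxa4, 5.2 against 1.2 for Hoxb4, 2.2 against 0.0 for Hoxc4 and 1.0 against 0.0 for Hoxd4. The Hoxb3 repeat had the most RXRα reads of the 8, and the remaining 7 held at most 5.2 reads, a depth at which they cannot be ordered.

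RARα peaks were rare at the Hox repeats and at such repeats elsewhere, but the Hox count is too small to compare the shares. Of the 27 DR1, DR2 and DR5 repeats in the windows 1 lay inside a RARα peak, or 3.70%. The share was 2.57% of all such repeats in the genome. By spacing it was 1 of 16 DR5, 0 of 5 DR1 and 0 of 6 DR2, against 2.49%, 3.51% and 1.82% in the genome. The repeat inside a peak was the one 2077 bp upstream of Hoxb4, and that peak had a score of 6, close to the lowest score of the list, 5. In 7 of the 27 repeats the highest RXRα bin reached 5 times input, compared to 9.17% of all such repeats in the genome. At mean input 4 RXRα reads in a bin are enough for this (6.64 times), so this limit lies close to the floor. In 1 repeat the highest bin reached 20 times, compared to 3.22% in the genome. Of these 7 repeats 5 were DR5, out of 16 in the windows, while 9.07% of all DR5 repeats in the genome reached 5 times input.

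**Figure D1:**
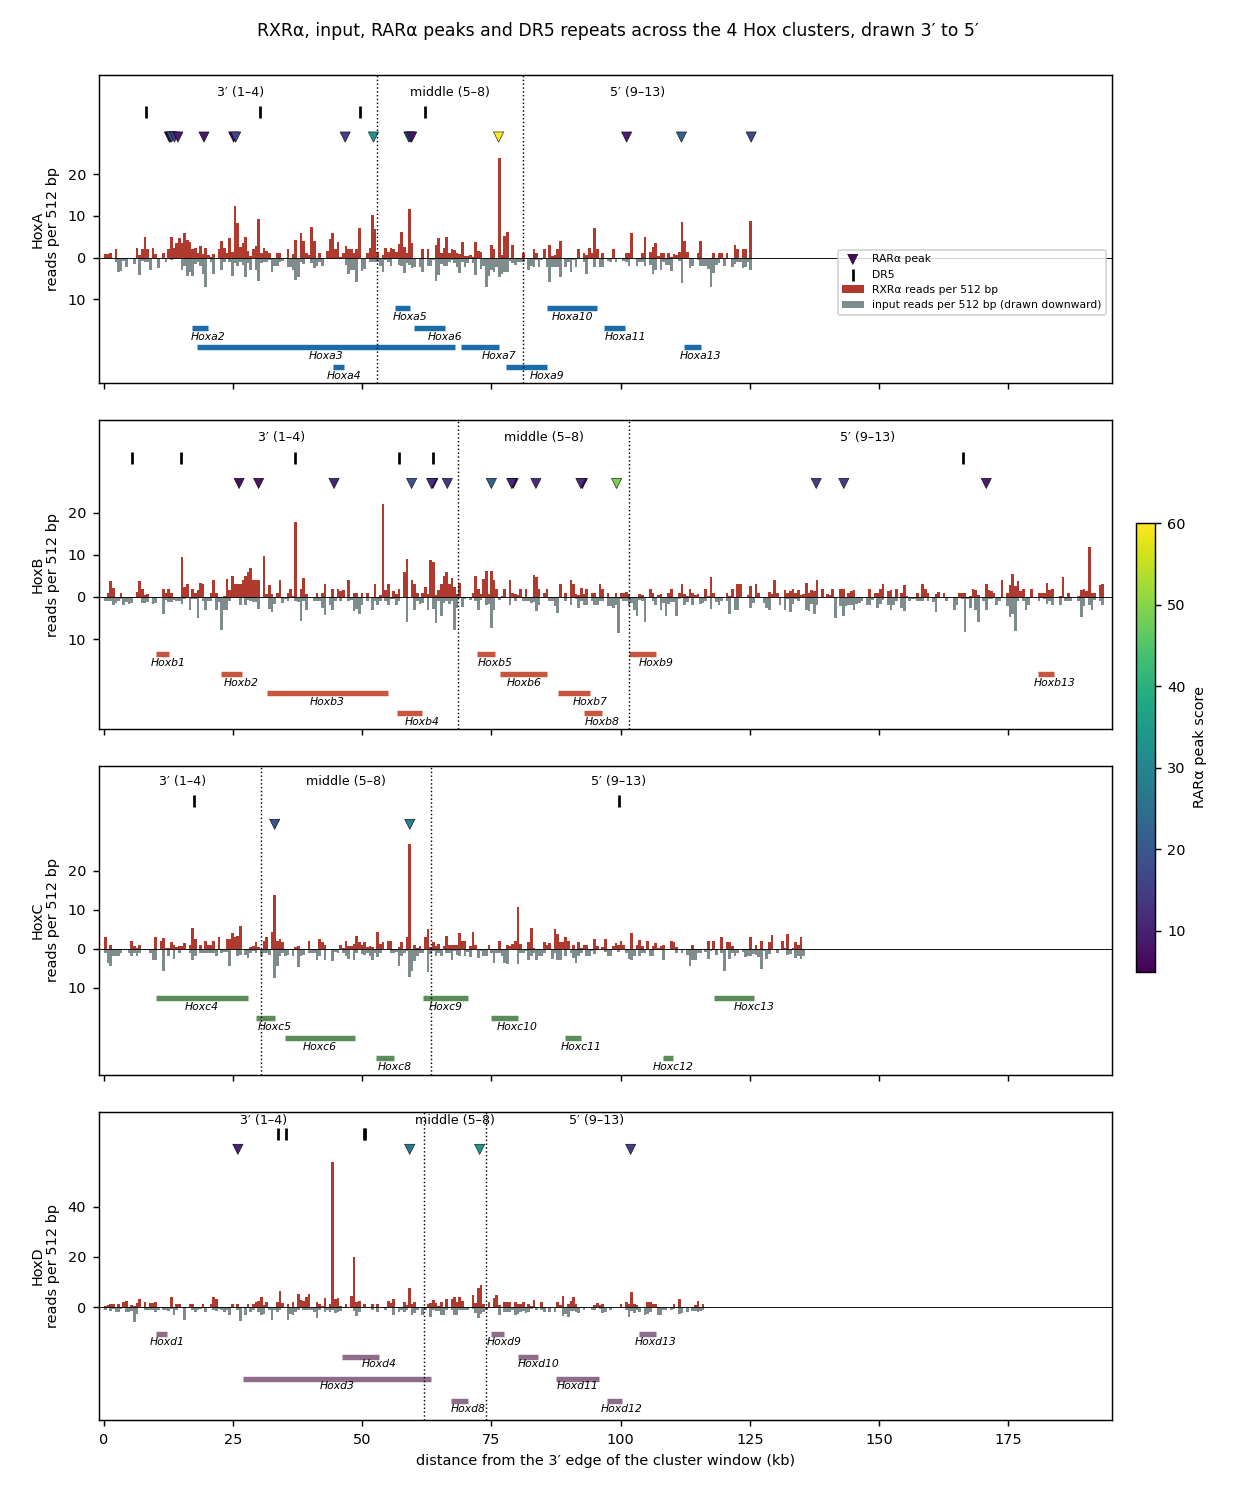
Map of the 4 Hox clusters from the 3′ to the 5′ end, in kb from the 3′ edge of each window. Red bars are RXRα reads and grey bars (downward) input reads per 512 bp, triangles are RARα peaks coloured by score, vertical ticks are DR5 repeats, coloured lines are 38 of the 39 genes, and dotted lines separate the sections. The vertical scale differs between clusters. RARα peaks are dense in HoxA and sparse in HoxC and HoxD, DR5 repeats gather in the 3′ sections, and the tallest RXRα bar, in HoxD, has no RARα peak above it.

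RARα peaks were unevenly spread over the clusters. HoxA and HoxB had 17 peaks each, HoxD had 4 and HoxC had 2, so that 40 of the 143280 RARα peaks fell in the windows. Per 10 kb this was 1.35 (0.789 to 2.17) in HoxA, 0.877 (0.511 to 1.4) in HoxB, 0.342 (0.0933 to 0.877) in HoxD and 0.147 (0.0178 to 0.532) in HoxC, compared to 0.540 over the genome. The intervals of HoxA and HoxC did not overlap, while those of HoxA and HoxB did. Some peaks, mostly in HoxA, abut within 10 bp, and the Poisson intervals count them as separate. With abutting peaks merged the windows held 35 peaks. The rates per cluster and per section were not computed on merged peaks. The tiles of 10 kb ordered the clusters in the same way. A RARα summit lay in 7 of 12 tiles of HoxA and 10 of 19 of HoxB. In HoxD it was 4 of 11 tiles and in HoxC 2 of 13. Against the genome the counts by rate and by tiles differed. HoxD was below the genome by rate, with an interval that held the genome rate, but above it by tiles (36.4% against 20.8%). Of all 55 tiles 41.8% held a summit, compared to 20.8% of the tiles of the genome. The rate over the 4 windows together was 0.699 per 10 kb (0.4996 to 0.952), an interval that held the genome rate of 0.540. The peaks covered 4.74% of the HoxA window and 0.700% of the HoxC window.

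Taken over the whole windows the Hox peaks were of ordinary height. The median score was 14.5 in a range of 5 to 60, compared to a median of 12 for all RARα peaks, and 11 of the 40 had a score greater than 20, against 23% of all peaks. These 11 were 6 peaks in HoxA, 2 in HoxB, 1 in HoxC and 2 in HoxD. RXRα over input across the peaks had a median of 1.75, compared to 2.18 for all RARα peaks. Only 1 of the 40 Hox peaks overlapped an RXRα region of at least 20 times input by 25% of the narrower interval, against 17% of all RARα peaks. Across the 40 peaks the score and the RXRα ratio had a Spearman rho of 0.378, which is a description over peaks that share their libraries, some of which abut one another.

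RXRα over the windows as a whole was close to input. The ratio of RXRα to input reads was 1.06 (0.930 to 1.22) in HoxA, from 456.6 and 430 reads, and 1.07 (0.949 to 1.21) in HoxB, from 568 and 531 reads. It was 1.11 (0.95 to 1.30) in HoxD, from 335 and 300.8 reads, and 0.833 (0.715 to 0.970) in HoxC, from 314 and 377 reads. HoxC was the only window of the 4 whose interval excluded equality with input, on the low side, and it was also the window with the fewest RARα peaks. Without the flanks of 10 kb HoxC was at 0.882 (0.749 to 1.04) and HoxD at 1.23 (1.04 to 1.46), so which of the windows differed from input depended on the flanks. By 10 kb tiles, where the input was taken as at least the genome mean, the median ratio was 0.610 in the Hox windows and 0.530 in the genome. The window ratios above used the input as counted, so they are not on this scale. The medians per tile were 23 RXRα and 28 input reads in the Hox windows, and 20.6 and 32.2 in the genome. Equality with input is thus not the usual level of a tile. Of the Hox tiles 1 of 55 reached 2 times input, against 6.84% of all tiles. That tile was in HoxD.

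RXRα over input was higher at the 3′ than at the 5′ ends over the 4 clusters, while in HoxC the ends could not be told apart. Over the 4 clusters RXRα over input was 1.32 (1.18 to 1.47) in the 3′ sections, 1.03 (0.889 to 1.20) in the middle sections and 0.758 (0.675 to 0.851) in the 5′ sections. The 3′ and 5′ values were 1.34 and 0.757 in HoxA, 1.45 and 0.778 in HoxB, and 1.34 and 0.713 in HoxD, and in each of these clusters the intervals of the ends did not overlap. In HoxC they were 0.871 (0.612 to 1.22) and 0.758 (0.606 to 0.946), which overlapped. The HoxD difference was not stable. When the window was divided at its midpoint the ends were at 1.36 (1.10 to 1.70) and 0.878 (0.692 to 1.11), and without the flanks they were at 1.45 (1.15 to 1.83) and 0.838 (0.590 to 1.17), so the intervals overlapped in both cases, whereas those of HoxA and HoxB did not overlap in either. Without the 1 kb around the strongest RXRα region of the cluster, an omission chosen after seeing the data, the 3′ section of HoxD was at 0.970 (0.768 to 1.22), which overlapped the interval of its 5′ section, 0.521 to 0.968. The 3′ sections of all 4 clusters were then at 1.22 (1.10 to 1.37), still above the 5′ sections.

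RARα peaks were fewest per length in the 5′ sections, whereas the 3′ and middle sections could not be ordered. There were 19 peaks in 214 kb of 3′ sections, 14 in 106 kb of middle sections and 7 in 252 kb of 5′ sections. Per 10 kb this was 0.889 (0.535 to 1.39), 1.32 (0.720 to 2.21) and 0.278 (0.112 to 0.572), so the 5′ interval overlapped that of the 3′ sections slightly and did not overlap that of the middle sections. HoxA held 10 of the 3′ peaks and HoxB 7, while HoxD held 2 and HoxC none. In HoxA the rate was higher in the 3′ than in the middle section (1.89 and 1.41 per 10 kb), and in HoxB it was lower (1.02 and 2.12), with wide overlap in both. HoxC had no peak at either end, and in HoxD the order of the ends depended on the limits, with 2 peaks in the 3′ and 1 in the 5′ section but 1 and 3 when the window was divided at its midpoint. Since HoxB has the long stretch between Hoxb9 and Hoxb13 without another Hox gene, the 5′ rate was also computed without it and was then 0.225 per 10 kb. Across the 39 genes the paralogue group and the number of RARα peaks within 10 kb had a Spearman rho of -0.476, and the paralogue group and the RXRα ratio at the promoter one of -0.267, where neighbouring genes share peaks.

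**Figure D2:**
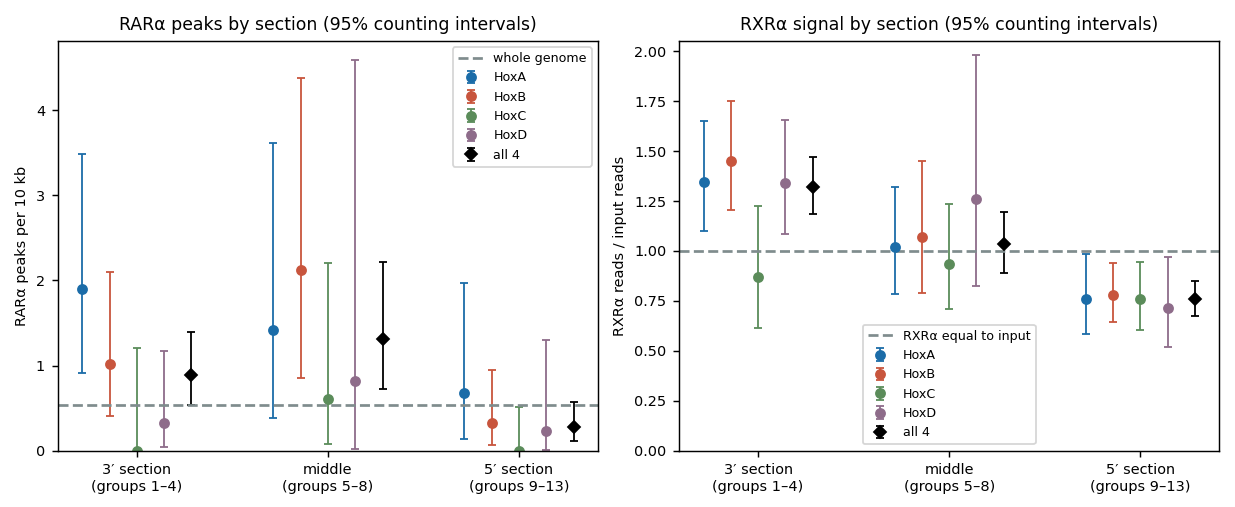
RARα peaks per 10 kb (left) and RXRα reads over input reads (right) in the 3′, middle and 5′ sections of each cluster and of all 4 together (black diamonds), with 95% counting intervals. The black diamonds fall from 1.32 to 0.758 for RXRα, and for RARα the lowest is the 5′ section at 0.278, under the genome rate of 0.540 (dashed).

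At the promoters the Hox genes had fewer RARα peaks than other genes. Within 1 kb of the TSS 9 of 39 Hox genes had a RARα peak of any score, or 23.1% (12.6 to 38.3%), compared to 52.2% of all protein-coding genes. Hox promoters are rich in CpG, and 33 of the 39 had at least 30 CpG in the 1 kb around the TSS. Of these 33 genes 8 had a peak, or 24.2% (12.8 to 41.0%), whereas 78.9% of all 12748 genes with such a start did. With scores greater than 20 the count was 4 of 39, against 40.9% of all genes and 65.2% of those with a CpG-rich start. Among genes with a peak within 1 kb the median of the best score was 19 for the Hox genes. It was 39 for all genes and 41 for those with a CpG-rich start, so peaks at Hox promoters were lower than usual for promoters.

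The surroundings of the Hox start sites were less unlike those of other genes. Within 10 kb of the TSS 29 of 39 Hox genes had a RARα peak (74.4%), compared to 67.3% of all genes and 87.0% of those with a CpG-rich start, and with scores greater than 20 it was 18 of 39, against 52.2% and 72.8%, respectively. Hox genes lie close together, so 1 peak can be within 10 kb of several of them, and when each peak was given to its nearest TSS alone 18 Hox genes had a peak. The 10 genes without a peak within 10 kb were Hoxb1, Hoxb13, Hoxc6, Hoxc9, Hoxc10, Hoxc11, Hoxc12, Hoxc13, Hoxd1 and Hoxd10. In the 5′ section of HoxC, 72.4 kb long, no RARα peak was called (0 to 0.509 per 10 kb).

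**Figure D3:**
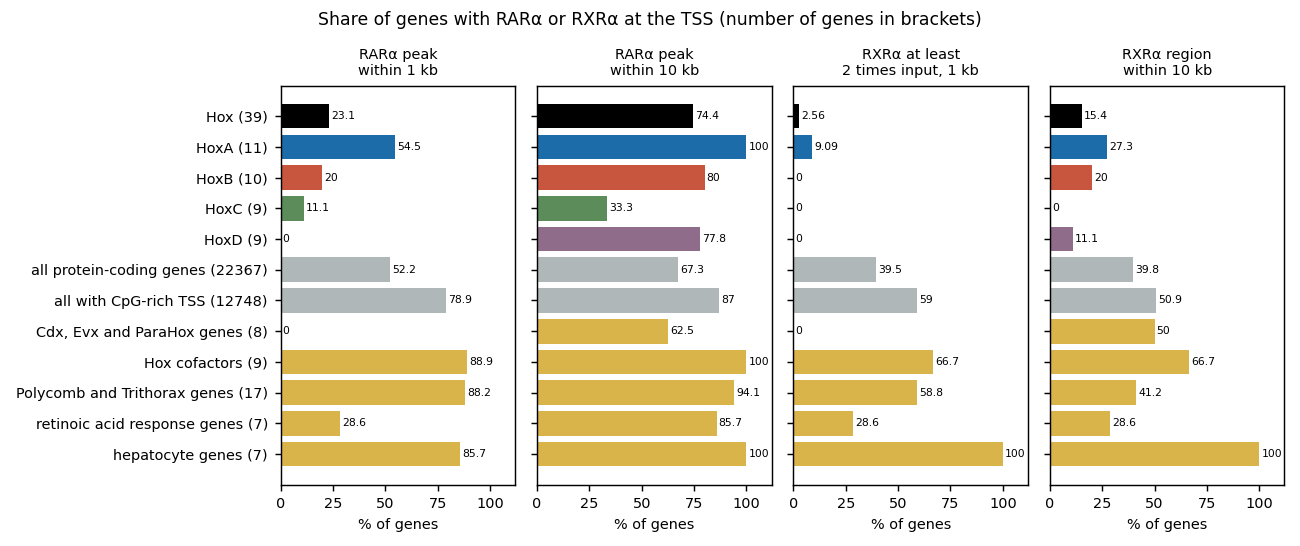
Share of genes in percent with a RARα peak within 1 kb or 10 kb of the TSS, with RXRα of at least 2 times input within 1 kb, and with an RXRα region of at least 20 times input within 10 kb, for all Hox genes, each cluster, all genes, genes with a CpG-rich start and the other gene lists, with the number of genes in brackets. The Hox bars for the 1 kb windows, 23.1% and 2.56%, are below those of all genes, 52.2% and 39.5%.

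HoxA held 6 of the 9 bound promoters, HoxB 2, HoxC 1 and HoxD none of its 9, for which the interval reaches up to 29.9%. The peak at Hoxa7, a trunk patterning gene also known from blood progenitors, was the highest of all Hox peaks, with a score of 60 at chr6:52171471-52172020. Hoxa5, which acts in lung and respiratory tract development, had 3 peaks within 1 kb, of scores 8, 22 and 27. Hoxa4 had a peak of score 15, and Hoxa2, which patterns the second pharyngeal arch, and Hoxa11, a limb and uterus gene, had a peak of score 9 each.

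Outside HoxA the bound promoters were Hoxb5 with a peak of score 22 whose summit lay 696 bp past the TSS, at chr11:96164311-96164860, Hoxc5 with a peak of score 19 at 41 bp from the TSS, and Hoxb2 with a peak of score 7. By the 5′ end of any transcript in place of the gene, Hoxb6 joined them with a peak of score 11. The genes with a peak only between 1 and 10 kb were Hoxa3, Hoxa6, Hoxa9, Hoxa10 and Hoxa13 in HoxA, Hoxb3, Hoxb4, Hoxb6, Hoxb7, Hoxb8 and Hoxb9 in HoxB, Hoxc4 and Hoxc8 in HoxC, and Hoxd3, Hoxd4, Hoxd8, Hoxd9, Hoxd11, Hoxd12 and Hoxd13 in HoxD. Their nearest summits lay between 1374 bp (Hoxb7) and 9323 bp (Hoxa9) from the TSS. In the annotation the gene models of Hoxa3 and Hoxd3 are long and begin upstream of their neighbours Hoxa6 and Hoxd4, so their start sites are uncertain.

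The highest peaks more than 1 kb from a Hox start site lay between neighbouring Hox start sites, some of them in introns of other gene models. A peak of score 49 lay between Hoxb8 and Hoxb9 at chr11:96140061-96140650, 2914 bp upstream of Hoxb8, and here RXRα was nearly missing, with 0.8 reads against 8.2 input reads (ratio 0.0976, 0.00282 to 0.932). Peaks of score 34 lay between the Hoxa4 and Hoxa5 genes, in an intron of the long Hoxa3 gene model, at chr6:52147221-52147830, with an RXRα ratio of 6.46 (3.67 to 10.8), and between Hoxd8 and Hoxd9 at chr2:74540291-74540690, with a ratio of 3.00 (1.004 to 13.7). A peak of score 29 lay between Hoxc8 and Hoxc9, in an intron of the transcript Gm20398, at chr15:102817861-102818310, with 27 RXRα reads against 6.6 input reads, a ratio of 4.09 (1.64 to 10.5). At 3 of these 4 peaks RXRα was above input, and at the highest of them it was below it.

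RXRα at the Hox promoters was low. Over the 1 kb on both sides of the TSS the ratio to input, where the input was taken as at least the genome mean of 7.59 reads, had a median of 0.606 over the 39 genes, compared to 1.37 over all genes and 2.43 over genes with a CpG-rich start. By this measure only Hoxa7 reached 2 times input, which was 2.56% (0.454 to 13.2%) of the Hox genes. The share was 39.5% of all genes and 59.0% of those with a CpG-rich start. At Hoxa7 there were 25 RXRα reads against 12 input reads, a ratio of 2.08 (1.01 to 4.55). The medians at Hox promoters were 5 RXRα reads and 4.6 input reads, so most single promoters cannot be ordered at this depth. They were 15.8 and 9.6 reads over all genes, and 37.2 and 13.8 over genes with a CpG-rich start. The least value of input thus replaced the counted input more often at Hox promoters than at those of all genes. On the input as counted Hoxb2, Hoxb3 and Hoxc10, among others, would pass 2 times input too. Shares on the input as counted were not computed.

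After Hoxa7 the highest ratios were those of Hoxb2, a hindbrain gene, with 15 reads against 4 (1.98, 1.11 to 3.26), Hoxc10, which is expressed at lumbar levels, with 14 against 6 (1.84, 1.01 to 3.09), Hoxa5 with 16 against 9 (1.78, 0.740 to 4.56) and Hoxb3 with 12.6 against 4 (1.69, 0.926 to 2.97). The lowest were Hoxc4 with 1 read against 5 (0.132, 0.00333 to 0.734), Hoxd4 with 1 against 2 (0.134, 0.00339 to 0.746), Hoxa11 with 1.8 against 4 (0.237, 0.0319 to 0.951), and Hoxc8 and the digit gene Hoxd13 with 2 against 4.4 and 5, both at 0.268 (0.0324 to 0.967). The choice of start site bears on this order. At another annotated transcript start Hoxd4 reached 3.32 times input, Hoxd3 reached 3.42 and Hoxb3 reached 2.50, so Hoxd4 passed from the lowest to among the highest, and 4 genes in place of 1 had a start at 2 times input. The intervals of these extremes are wide. Those of Hoxb2 and Hoxc4 did not overlap, but both genes were picked as extremes by the same ratio, and Hoxc4 rests on 1 read. No difference between the 2 genes follows from this. RXRα at the promoter did not follow its CpG count across the 39 genes (Spearman rho -0.0259, a description).

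**Figure D4:**
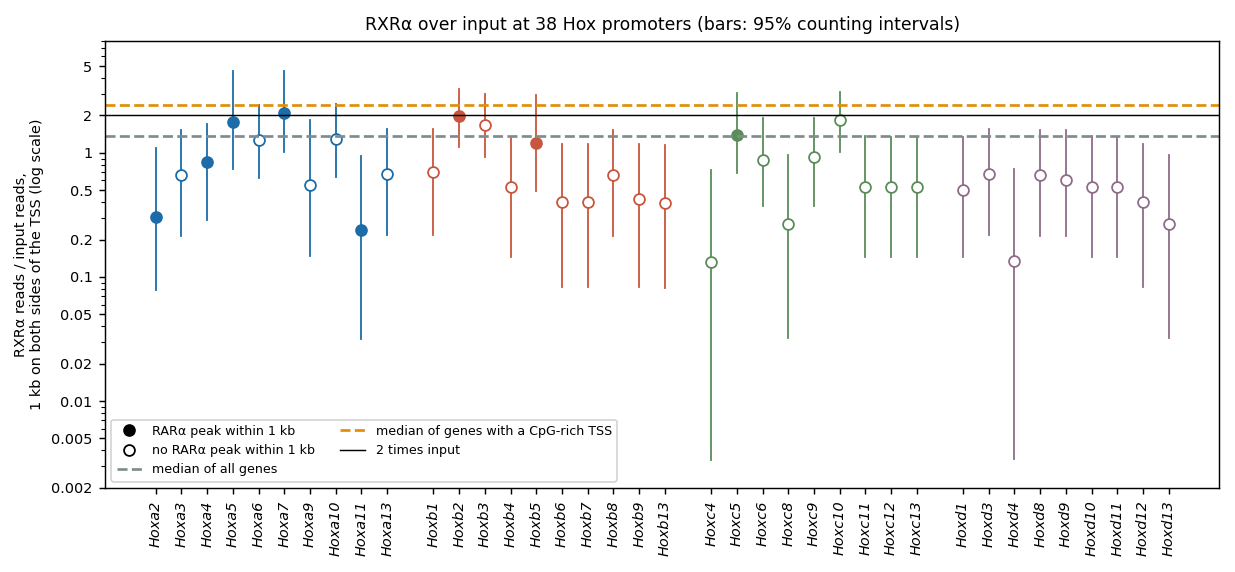
RXRα reads over input reads within 1 kb of the TSS of 38 of the 39 Hox genes on a log axis, with the input set to at least the genome mean and with 95% counting intervals. Filled points have a RARα peak within 1 kb, and the dashed lines are the medians of all genes (1.37, grey) and of genes with a CpG-rich start (2.43, orange), and the solid line is 2 times input. Of the 38 points only Hoxa7 is above the line at 2 times input.

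RXRα reached a high ratio to input in few places of the windows. A region was called where RXRα reached 20 times the larger of local and mean input, which takes at least 13 reads in a 32 bp bin. The windows held 5 such regions in 572 kb, 1 in HoxA, 2 in HoxB, 2 in HoxD and none in HoxC. The genome held 42117 such regions in 2654.9 Mb, which is more per length than in the windows. With 5 regions the counting error is too wide to tell these rates apart. Of the 5 regions 4 lay in 3′ sections. Of the Hox genes 6 of 39 (15.4%) had a region within 10 kb of the TSS, compared to 39.8% of all genes and 50.9% of those with a CpG-rich start. These 6 were Hoxa3, Hoxa7, Hoxa9, Hoxb3, Hoxb4 and Hoxd4.

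The strongest region lay in an intron of Hoxd3 at chr2:74568641-74568864, 8717 bp downstream of the TSS of Hoxd4. In the bin of its highest ratio there were 47 RXRα reads and 0 input reads, which was 78.0 times the genome mean of input. The second HoxD region lay in an intron shared by the Hoxd4 and Hoxd3 gene models at chr2:74564737-74564800, with 15 RXRα reads and 0 input reads (24.9 times the mean). The HoxB regions both lay in introns of Hoxb3, at chr11:96185601-96185728 with 18 reads against 0 (29.9 times) and at chr11:96202529-96202592 with 14 against 0 (23.2 times), and the latter is the one that holds the DR5 shown above. The HoxA region lay at the start site of Hoxa7, at chr6:52171841-52171904, with 20 reads against 0 (33.2 times). All 4 regions outside HoxA were thus in introns of paralogue group 3 gene models.

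RARα was called at 1 of the 5 regions, the one at Hoxa7, whereas 53.7% of all RXRα regions in the genome overlapped a RARα peak. At the 4 regions without one the nearest RARα summit was between 5634 bp and 14782 bp away. At 10 times input there were 15 regions in the windows, and 7 of them overlapped a RARα peak, compared to 43.1% of all regions of that height, a share close to this background. Among the regions added at 10 times input were those at the peaks of HoxA, HoxC and HoxD described above. None of the 15 lay in a 5′ section, and 12 lay in 3′ sections.

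The sequences of the strongest region and of the Hoxa7 region are shown with every half-site of the list above in capitals, on the plus strand of the genome, since these places had the highest RXRα ratios in the clusters without and with a RARα peak.
Hoxd3 intron region: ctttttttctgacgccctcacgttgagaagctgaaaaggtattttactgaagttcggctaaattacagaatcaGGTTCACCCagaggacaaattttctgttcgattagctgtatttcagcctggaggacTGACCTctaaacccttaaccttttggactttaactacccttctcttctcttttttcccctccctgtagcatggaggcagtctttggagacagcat
Hoxa7 region: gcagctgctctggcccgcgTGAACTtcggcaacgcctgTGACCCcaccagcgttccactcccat
The Hoxd3 region holds 3 half-sites, 2 of which overlap in opposite directions in the run of 9 capitals, and 6.79% of all genome windows of its length, 224 bp, hold at least as many. The Hoxa7 region holds 2 half-sites, as do 2.77% of windows of 64 bp. Neither holds a direct repeat with a spacing of 1, 2 or 5.

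**Figure D5:**
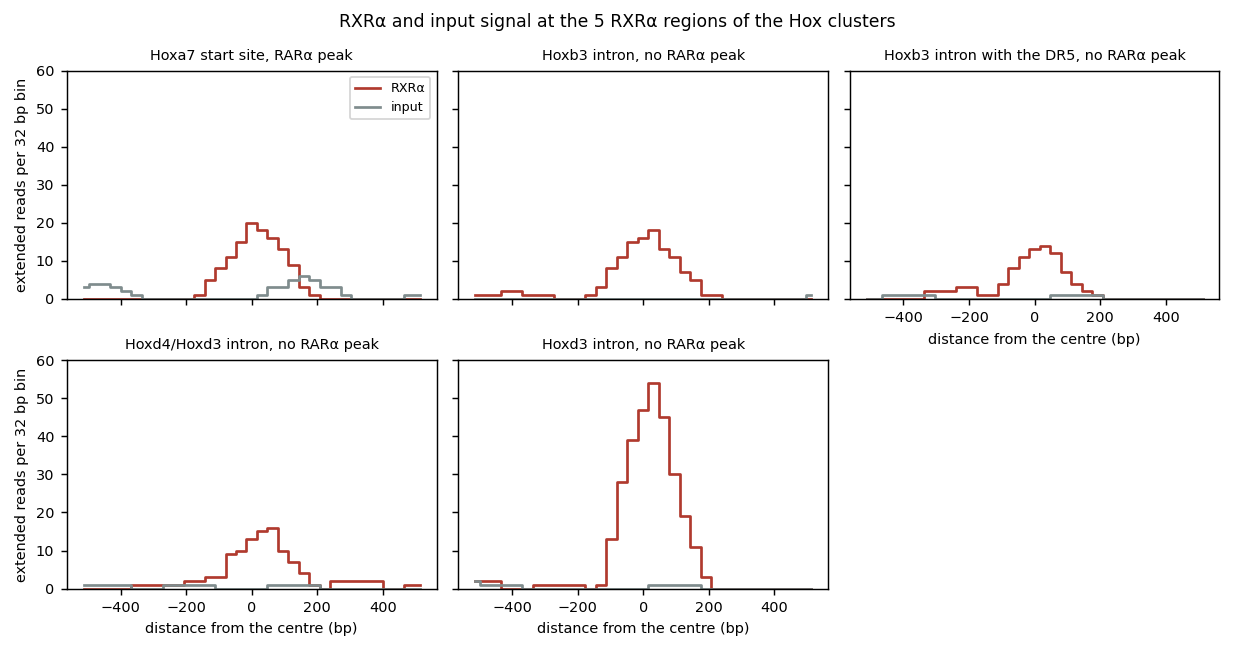
RXRα (red) and input (grey) signal in extended reads per 32 bp bin, by distance in bp from the centre of each of the 5 RXRα regions. The Hoxd3 intron region is the highest, and the Hoxa7 start site is the only region of the 5 with a RARα peak.

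The nearest protein-coding genes outside the clusters were of both kinds. Gene models with only a provisional name (Gm, Rik or clone names) were left out. The genes lay between 8.45 kb (Evx2) and 199 kb (Calcoco1) from the cluster. Skap2 on the 3′ side of HoxA, an adaptor protein gene, had 3 RARα peaks within 1 kb, the highest of score 55, and an RXRα ratio of 3.16 (1.88 to 5.50). Mtx2, a mitochondrial import gene on the 3′ side of HoxD, had 3 peaks up to a score of 45 and a ratio of 3.96 (2.39 to 6.81), and Calcoco1 on the 5′ side of HoxC had 2 peaks up to 31 and a ratio of 3.86 (2.13 to 6.97). The other 5 neighbours had no peak within 1 kb, namely the homeobox genes Evx1 (ratio 0.268) and Evx2 (0.535), and Ttll6 (0.268), Skap1 (0.132) and Smug1 (0.401). Both Evx genes, which arose with the Hox clusters, were thus as low as the Hox genes, and 3 of the 6 neighbours that are not homeobox genes were high.

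Other genes of Hox regulation were read from lists, beside the shares of all genes given above, 52.2% for a RARα peak within 1 kb and 39.5% for RXRα. None of the 8 Cdx, Evx and ParaHox genes, homeobox genes of early patterning of which Evx1 and Evx2 are already given above, had a RARα peak within 1 kb (up to 32.4%), and none reached 2 times input in RXRα. Of the 9 Hox cofactors of the Pbx, Meis and Pknox families, which bind DNA together with Hox proteins, 8 had a peak and 6 reached 2 times input, and 7 of the 9 have a CpG-rich start. Meis1 had a peak of score 58. Among 17 Polycomb and Trithorax genes, which silence or keep active the Hox clusters, 15 had a peak and 10 reached 2 times input, or 88.2% and 58.8%. As 15 of these 17 genes have a CpG-rich start, they are nearer to the shares of such genes, 78.9% and 59.0%, than to those of all genes. Of 7 retinoic acid response genes 2 had a peak and both reached 2 times input: Cyp26a1, which degrades retinoic acid, with a score of 21 and a ratio of 6.87 (3.85 to 12.9), and the retinaldehyde reductase gene Dhrs3, with a score of 33 and a ratio of 8.34 (5.55 to 13.6). Rarb, a receptor gene known as a retinoic acid target, had no peak within 1 kb of the 5′ end of its gene model and a ratio of 0.119 (0.00282 to 0.932).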

How the data were processed

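ChIP-seq libraries of RXRα, RARα and input from mouse liver were compared over the Hox clusters. Per the submitters' processing notes the reads went through CASAVA 1.4, Bowtie and, for RARα, MACS, on mm9. The paper names mm10 for the alignment, while the headers and the positions fit NCBI37/mm9, which was used throughout. For RXRα and input the authors deposited signal as whole-number coverage in bins of 32 bp, and 1 read covers 5 bins. For RARα the deposited list gives a score per peak and a false discovery rate in percent, at most 4.75, which was not used as a filter. The control of the RARα peak calling is not given in the sources used here, and peaks of any score were kept.

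The members and the gene lists were chosen with earlier results of these data known. Genes, exons and start sites came from GENCODE M1, in which the 39 symbols have 40 gene IDs, and DNA came from the NCBI37 reference. RXRα was scaled to the mean of the input track (0.603 extended reads per bin). Ratios are RXRα over input. At promoters, peaks and 10 kb tiles the genome mean was the least value of input. For whole windows and sections the input was used as counted. RXRα regions were bins of at least 20 times the larger of local and mean input, joined within 200 bp. A peak was placed by its summit. Section limits were halfway between the start sites of neighbouring genes. Every Hox gene with a RARα peak or RXRα region within 10 kb is named, with the 5 highest and 5 lowest promoter ratios, the nearest gene outside each end and each direct repeat in a RARα peak or under an RXRα bin of 5 times input, except items not reported here. The nearest genes outside the ends leave out gene models with only a provisional name. The steps for ratios, regions and repeats were tested on simulated data. No p-values were computed. The scripts ran in Python 3.11.15, using scipy 1.17.1, numpy 2.4.6 and pandas 2.3.3, and the plots were drawn with matplotlib 3.10.9.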

Additional observations from a re-analysis of the deposited data

How the results depend on the processing

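No paired analysis was possible because each antibody has 1 library. With RARα scores greater than 20 in place of any score, 4 Hox genes had a peak within 1 kb and 18 within 10 kb, the windows held 11 peaks, the 3′ sections 0.14 and the 5′ sections 0.0397 peaks per 10 kb, and 0 direct repeats lay in a peak. Repeats with C at position 5 of the half-site or of AGGTCA alone also gave 0 in place of 1. With peaks given to the nearest gene alone, 18 Hox genes had a peak within 10 kb. The number of RXRα regions was 66 at 5 times input, 15 at 10 times and 2 at 30 times. Promoters with RXRα at 2 times input numbered 4 within 500 bp and 4 with the 5′ end of any transcript, and they numbered 5 at 1.5 times and 0 at 3 times input. Without 1 kb around its strongest RXRα region, an omission chosen after seeing the data, the 3′ section of HoxD fell to the other side of input, at 0.970. Over the 4 clusters together, other distances, flanks, scalings, windows divided at their midpoint and merged abutting peaks left the counts within 1.5 times and the ratios within their counting intervals. Within single clusters dividing at the midpoint moved more, with RARα peaks at the 3′ and 5′ ends at 13 and 4 in place of 7 and 3 in HoxB, 2 and 0 in place of 0 and 0 in HoxC, and 1 and 3 in place of 2 and 1 in HoxD, which turned the order in HoxD. The reference is not masked for repeats, so the alternative without repeat bins was not run. Single Hox promoters, with about 5 reads, are at the limit of the depth.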

Other observations

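Apart from the DR5 repeats shown above, 2 direct repeats of other spacings in the 5′ sections lay under RXRα bins of at least 5 times input, both without a RARα peak. They are shown with their half-sites in capitals, on the strand of the repeat.
DR1 upstream of Hoxb13: ttgcccAGGTCAtGGTTCAcagggc
DR2 upstream of Hoxa9: aaaacaAGTTCAgaAGGTCAgcctgc
The DR1, at chr11:96048806-96048818 on the plus strand, had 8.2 RXRα reads against 0.8 input reads within 201 bp and a highest bin at 9.0 times input. The DR2, at chr6:52183815-52183828 on the plus strand and in an intron of the Hoxa10 gene model, had 3.0 RXRα reads against 2.0 and a highest bin at 6.64 times input. Hoxb13 itself, a gene of the tail and the prostate, had no RARα peak within 10 kb and 3 RXRα reads against 2 input reads around its start.

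The highest RXRα ratio over a Hox RARα peak was found in an intron of Hoxa3 at chr6:52120571-52121140, where a peak of score 16 had 19 RXRα reads against 1.2 input reads, a ratio of 8.76 (5.27 to 13.7). At the start of Hoxa5 the peak of score 27 had 8.8 reads against 0.8, a ratio of 8.11 (3.79 to 15.7). The long stretch between Hoxb9 and Hoxb13 held RARα peaks of scores 9, 15 and 15. Beyond the last gene of HoxA, 9836 bp upstream of Hoxa13, a peak of score 17 had 10.2 reads against 3, a ratio of 3.40 (0.858 to 18.8).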
